A study of Mus musculus with 8 samples.

Results

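The nuclear-encoded subunits of the mitochondrial respiratory chain were examined by RNA sequencing of C57BL/6J mouse hearts. There were 4 libraries from the MR group, which stands for mitral regurgitation, and 4 from the Sham group. Members were the protein-coding genes whose symbols begin with Nduf, Sdh, Uqcr, Cox4 to Cox8 or Atp5, together with Cyc1 and Cycs. They came to 98 of the 33105 genes in the table. Of these, 86 were counted as subunit genes by their symbols alone. These were 36 of complex I, 4 of complex II, 9 of complex III and 19 of complex IV. Complex V had 17, and the gene of cytochrome c completed them. The other 12 encode assembly factors named Ndufaf or Sdhaf. Ndufa4 and its paralogue Ndufa4l2 were placed in complex IV, where the NDUFA4 protein is found, and Atp5s, which is not a core subunit of the synthase, was kept in complex V by its symbol. Neither group carried a genetic change or a drug according to the labels. The sources used here give no chamber, time after surgery, age or sex, and the labels do not say that each library came from a separate animal. P-values therefore rest on the spread between libraries, part of which may be technical. The identifiers in the sample titles form a separate run in each group, so any difference in collection that follows them cannot be told apart from MR.

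The respiratory chain sits in the inner mitochondrial membrane. Complexes I and II take electrons from NADH and succinate, coenzyme Q carries them to complex III, cytochrome c carries them to complex IV, and complex IV passes them to oxygen. Complexes I, III and IV pump protons, and complex V, the ATP synthase, uses the gradient to make ATP. Complex II is encoded by nuclear genes alone, whereas the other complexes also hold subunits encoded by mitochondrial DNA. Heart muscle is rich in mitochondria and carries muscle-type isoforms of several complex IV subunits. These include COX6A2, COX7A1 and, in mouse, COX8B.

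Promoters are shown for 4 genes: Cox6a1, Cox7a1 and Cox7a2, which belong to the isoform pairs whose ratios separated the groups, and Cycs, as an example of an NRF1 match. Cox6a2 completes these pairs and is named only. Each line gives the 250 bases before the RefSeq start of the gene, on its own strand, 5′ to 3′, from build GRCm38.p6. Capitals mark matches to GCATGCG, the core searched for nuclear respiratory factor 1 (NRF1), or to CCGGAAG, the core searched for the ETS factor GABPA, on either strand.
Cox6a1: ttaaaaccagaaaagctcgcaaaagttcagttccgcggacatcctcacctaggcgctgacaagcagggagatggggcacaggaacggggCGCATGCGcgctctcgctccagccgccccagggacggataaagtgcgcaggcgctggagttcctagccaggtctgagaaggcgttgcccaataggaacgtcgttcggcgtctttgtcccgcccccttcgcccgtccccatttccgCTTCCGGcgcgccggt
Cox7a1: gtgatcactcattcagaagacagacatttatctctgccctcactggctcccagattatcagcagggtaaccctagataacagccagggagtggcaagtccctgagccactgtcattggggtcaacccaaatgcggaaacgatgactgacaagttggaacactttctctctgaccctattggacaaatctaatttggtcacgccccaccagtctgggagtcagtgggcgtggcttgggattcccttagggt
Cox7a2: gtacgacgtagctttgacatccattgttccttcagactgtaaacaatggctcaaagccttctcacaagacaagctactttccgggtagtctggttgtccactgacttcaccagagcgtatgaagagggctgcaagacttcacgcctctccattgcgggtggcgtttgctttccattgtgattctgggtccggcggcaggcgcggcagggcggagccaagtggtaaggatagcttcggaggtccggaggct
Cycs: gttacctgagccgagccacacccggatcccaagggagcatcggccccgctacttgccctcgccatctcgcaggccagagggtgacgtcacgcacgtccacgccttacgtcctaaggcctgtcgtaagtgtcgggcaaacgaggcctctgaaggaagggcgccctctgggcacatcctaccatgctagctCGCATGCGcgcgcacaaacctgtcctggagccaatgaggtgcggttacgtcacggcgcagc
The Cox6a1 window is chr5:115348959-115349208, minus strand. The Cox7a1 window is chr7:30183921-30184170, plus strand. The Cox7a2 window is chr9:79759854-79760103, minus strand. The Cycs window is chr6:50566570-50566819, minus strand.

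In Cox6a1, the gene of the ubiquitous COX6A isoform, an NRF1 core began 161 bases before the start and overlapped its reverse complement, so that the capitals there hold 2 matches. A GABPA core lay 16 bases before the start of the same gene. Cycs held a like overlapping NRF1 pair 61 bases before its start. No letters of the 4 motifs searched were found in the windows printed for Cox7a1 and Cox7a2. Over the longer window of 250 bases before to 50 after the start, 84 windows of 79 members were searched, while 19 members were not matched to the table. GCATGCG was in 16.7% of member windows, against 5.7% of the 14639 windows of genes tested for expression and 3.58% of all 32851 windows. By group GCATGCG was in 8.82% of 34 complex I windows, 7.14% of 14 in complex IV and 25% of 16 in complex V. It was in 33.3% of 3 windows in complex II, 40% of 5 in complex III and 18.2% of 11 in the assembly factors. The Cycs window held it. CCGGAAG was in 25% of member windows, against 15.8% of tested and 8.86% of all windows. The shares differed by group, at 11.8% of 34 complex I windows, 21.4% of 14 in complex IV and 31.2% of 16 in complex V. They were 66.7% of 3 windows in complex II, 40% of 5 in complex III and 45.5% of 11 in the assembly factors, and Cycs held none. AAGGTCA, searched for the estrogen-related receptors (ERR), was in 9.52% of member windows, against 3.36% and 4.72%. By group AAGGTCA was in 8.82% of complex I windows, 33.3% of the 3 in complex II and 25% of those in complex V, and in none of the others. AAGATGG, searched for YY1, was in 13.1%, against 6.69% and 6.34%. By group AAGATGG was in 20.6% of complex I windows, 7.14% of those in complex IV and 12.5% of those in complex V. It was in 9.09% of assembly factor windows and in none of the others. These are matches of letters on both strands, and a match is not a measured binding site.

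Total counts per library were 42291511 to 58658094, and 16603 genes passed the filter on low counts. No library was a copy of another. Over all genes the edgeR quasi-likelihood test with Benjamini-Hochberg adjustment called 76 genes, 40 higher and 36 lower in MR. Sham replicate 1 stood apart: chi-square values per degree of freedom were 32.1 to 42.6 in its within-group pairs and 12 to 28.3 in the other within-group pairs. The tally of negative log2 fold changes, the medians and sums of each complex and some of the named genes are given with and without it. The 10 cardiomyocyte markers were all detected and summed to 48680 to 55390 CPM (counts scaled to a common library total and by TMM) in MR libraries and 53460 to 61620 CPM in Sham libraries. Transcripts of brown fat were near the floor for Ucp1 and Elovl3, each under 1 CPM in both groups.

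No respiratory chain gene passed the threshold of an adjusted p of 0.05 between MR and Sham, where 0.458% of all tested genes did. Most subunit genes averaged lower in MR libraries by small amounts when all 8 libraries were used. Of the 97 members tested, 80 had a negative log2 fold change, against 49.6% of all tested genes, and the median over the 85 tested subunits was -0.11 on the log2 scale, against 0.00 over all tested genes. Without Sham replicate 1, 51 of the 97 were negative and the subunit median was -0.01, so the shift rested on that library. At an unadjusted p under 0.05, 8 members were lower and none was higher in MR, where 7.29% of all genes were lower and 7.78% higher. All 4 MR values lay below all 4 Sham values for 2 members, Cox6a2 and Sdha, where 3.91% of all genes were so separated. These 3 shares of members called or separated are near the background or under it. All MR values lay above all Sham values for no member, where 4.19% of all genes were so separated. In bulk tissue, fewer cells of a type and less RNA per cell cannot be told apart. The remaining member, Cox7b2, had 0 to 5 counts in MR libraries and 4 to 11 counts in Sham libraries and was not tested.

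**Figure D1:**
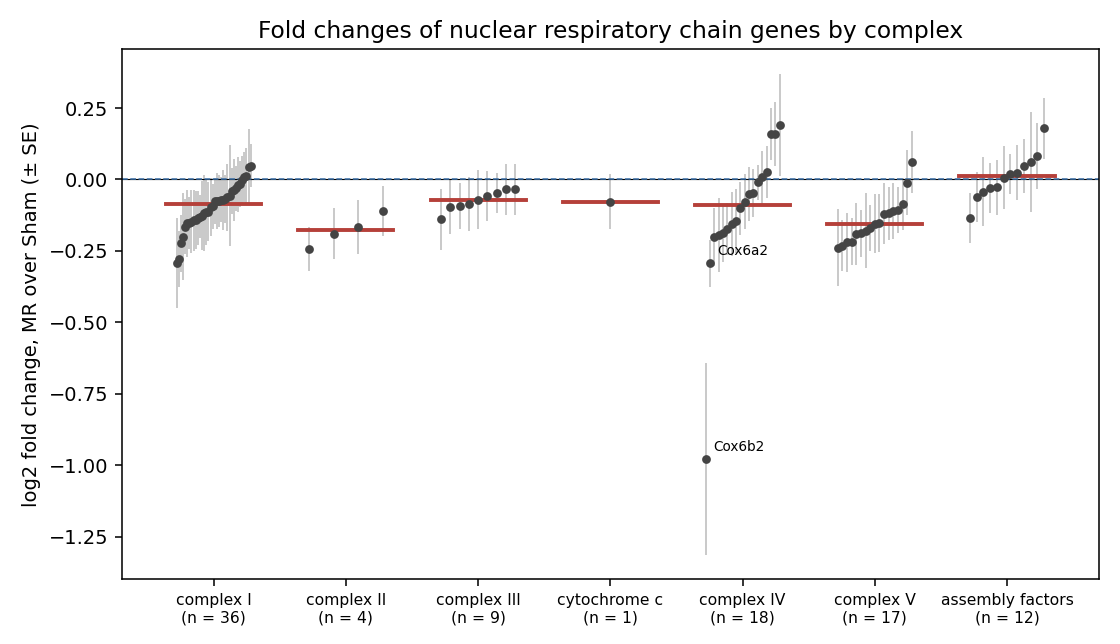
Log2 fold change of MR over Sham for each of the 97 tested genes, with its standard error, grouped by complex. The red bar is the median of each group and the dashed line the median of all tested genes. Nearly all points of complexes II, III and V lie below 0, and Cox6b2 of complex IV lies lowest at -0.98.

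The complexes differed in their medians. The 4 complex II genes had the lowest median log2 fold change, -0.18, and all 4 were negative. Complex V followed at -0.15, with 16 of 17 genes negative. Complex IV had a median of -0.09 with 13 of 18 negative, complex I a median of -0.08 with 32 of 36 negative, and complex III a median of -0.07 with 9 of 9 negative. The assembly factors had a median of 0.01, with 5 of 12 negative. These are descriptions of genes that vary together across libraries, and no test was made over them.

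The spread between Sham libraries exceeded the difference between the groups. Relative to its own mean over the 8 libraries, on the log2 CPM scale, the median subunit averaged -0.05 ± 0.08 in MR and 0.05 ± 0.19 in Sham (SD, n = 4 each). Sham replicate 1 held the highest value of all 8 libraries for 93 of the 97 members, against 22.2% of all genes tested. MR libraries 1 to 4 were at -0.01, 0.04, -0.15 and -0.08, and Sham libraries 1 to 4 at 0.31, -0.04, -0.14 and 0.05. Sham replicate 3 thus lay beside MR replicate 3, and the groups overlapped. All 5 complexes followed this order closely: complex I was at 0.34 and complex V at 0.32 in Sham replicate 1. In Sham replicate 4, complexes II and V were at 0.10 and 0.08, where complex I was at 0.02.

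**Figure D2:**
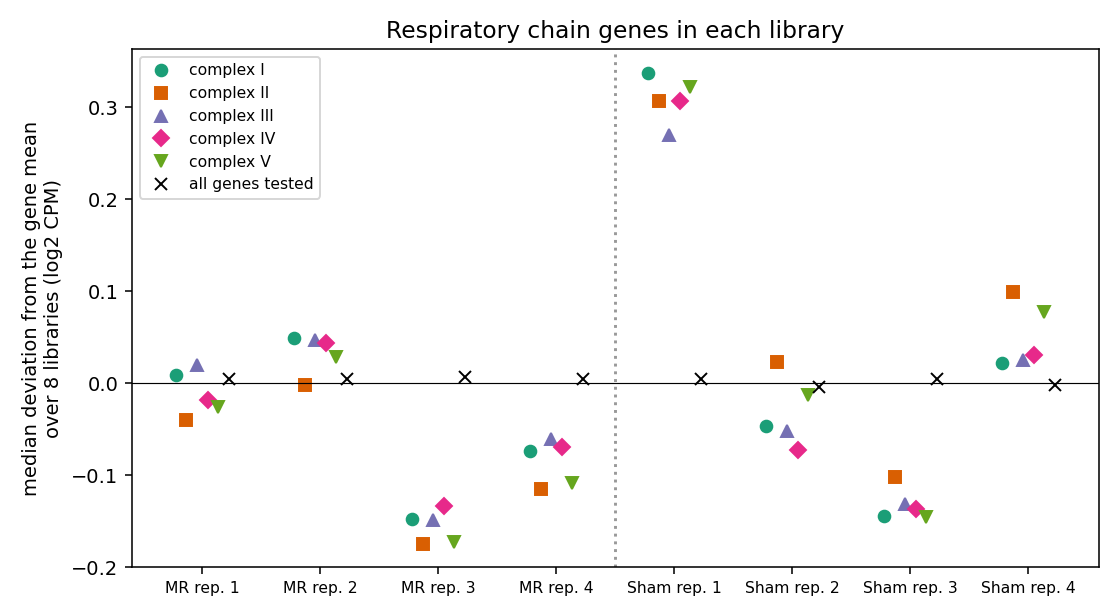
Median deviation of the genes of each complex from their own mean over 8 libraries (log2 CPM), for MR libraries left of the dotted line and Sham libraries right of it. All complexes are highest in Sham replicate 1, between 0.27 and 0.34, while crosses for all tested genes stay near 0.

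Without Sham replicate 1, the median of complex I was 0.01, that of complex III -0.0043 and that of complex IV -0.0039. The lower medians of these 3 complexes thus rested on that library. The medians of complex II and complex V were -0.09 and -0.05 without it, with 4 of 4 and 15 of 17 genes negative. The median of the assembly factors had no steady sign: leaving out Sham replicate 1 gave 0.10, leaving out Sham replicates 3 and 4 in turn gave -0.02 and -0.04, and removing the length trend described next gave -0.02. Without Sham replicate 3 all 5 medians were lower, at -0.15 in complex I, -0.25 in complex II, -0.13 in complex III, -0.14 in complex IV and -0.23 in complex V. After a trend of each library against exon length was removed, the medians were -0.11, -0.20, -0.08, -0.10 and -0.19 in the same order, and that of all genes -0.05. With that trend removed and Sham replicate 1 left out as well, they were -0.03, -0.14, -0.04, -0.04 and -0.10, against -0.04 for all genes. Complexes II and V had the lowest medians of the 5 in each of these settings.

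**Figure D3:**
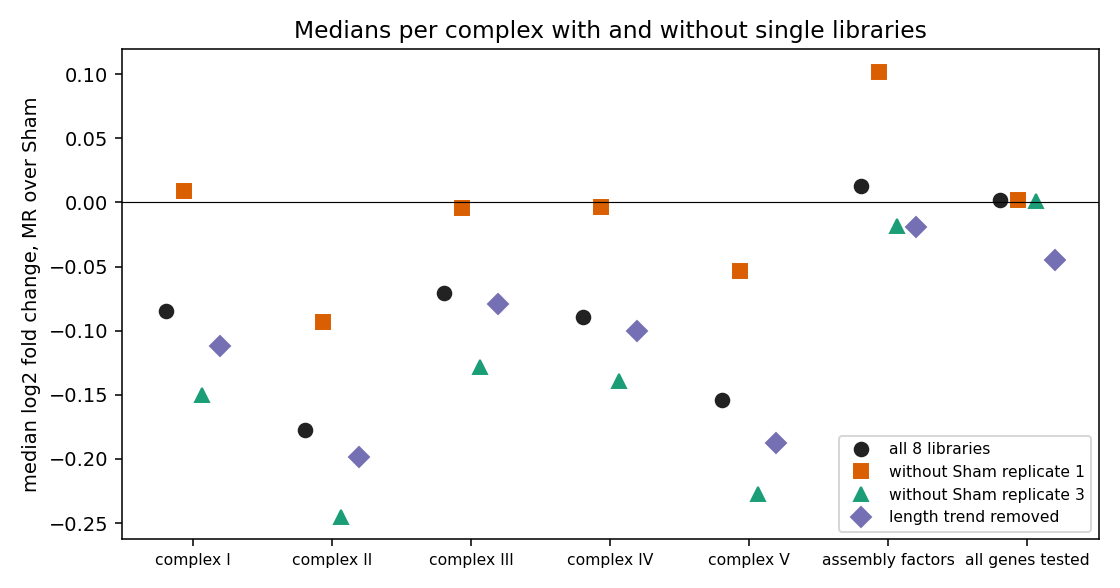
Median log2 fold change of MR over Sham per complex with all 8 libraries, without Sham replicate 1, without Sham replicate 3, and after removal of the length trend. Complexes I, III and IV lie near 0 without Sham replicate 1, while complex II stays at -0.09 and complex V at -0.05.

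Complex I takes electrons from NADH through a peripheral arm and passes them to coenzyme Q. Its lowest p belonged to Ndufv1, the core flavoprotein that binds NADH. Ndufv1 was at 516, 538, 464 and 495 CPM in MR libraries and at 721, 561, 519 and 640 CPM in Sham libraries. The groups overlapped, since MR replicate 2 exceeded Sham replicate 3. Its log2 fold change was -0.28 ± 0.10 (SE, edgeR adjusted p = 0.194). Ndufa13, an accessory subunit also known as GRIM-19, averaged 239 ± 17.2 CPM in MR and 279 ± 41.95 CPM in Sham (SD, n = 4 each), with an edgeR adjusted p of 0.304 and a log2 fold change of -0.22, which was -0.13 without Sham replicate 1. The exons of Tssk6 on the other strand overlap 30% of its exon bases, and whether counting used strand is unstated.

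Ndufa12, an accessory subunit, was at 192, 134, 193 and 175 CPM in MR libraries and at 277, 205, 163 and 204 CPM in Sham libraries. MR replicate 2 was the lowest of all 8, in a library whose median subunit was not low. The log2 fold change was -0.29 ± 0.16 (SE, edgeR adjusted p = 0.423) and -0.14 without Sham replicate 1, and 26.2% of its 50-base stretches also occur in a pseudogene, so its counts are uncertain. Ndufs1, the large iron-sulfur core subunit, averaged 655 ± 26.0 CPM in MR and 717 ± 51.7 CPM in Sham (SD, n = 4 each). Ndufb10, of the membrane arm, was at 358 to 413 CPM in MR libraries and 365 to 505 CPM in Sham libraries, with a log2 fold change of -0.14 that was -0.05 without Sham replicate 1. The 36 complex I genes ranged from -0.29 to 0.05 in log2 fold change.

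Complex II, succinate dehydrogenase, links the citric acid cycle to the chain. Sdha, the catalytic flavoprotein (ENSMUSG00000021577, chromosome 13, 74322254 to 74350280, GRCm38), was at 1550, 1492, 1420 and 1480 CPM in MR libraries and at 1886, 1736, 1589 and 1820 CPM in Sham libraries. Every MR value lay below every Sham value, with Sham replicate 3 the nearest. The log2 fold change was -0.24 ± 0.08 (SE), 0.845-fold, with an edgeR adjusted p of 0.147. Left-out libraries gave log2 fold changes of -0.29 to -0.21, with edgeR adjusted p from 0.0375 to 0.37; the lowest was that without Sham replicate 3. DESeq2 called Sdha with an adjusted p of 0.0182, where it called 4.14% of all genes.

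The membrane anchor genes of complex II overlapped between the groups. Sdhc was at 389, 409.5, 364 and 377 CPM in MR libraries and at 514, 426, 377 and 437 CPM in Sham libraries, with a log2 fold change of -0.19 ± 0.09 (SE, edgeR adjusted p = 0.347). Sdhd was at 336 to 380 CPM in MR libraries and 350 to 483 CPM in Sham libraries. Sdhb, the iron-sulfur subunit, had the smallest difference of the 4, with a log2 fold change of -0.11 ± 0.09 (SE). Without Sham replicate 1 the log2 fold changes of Sdhc, Sdhd and Sdhb were -0.11, -0.08 and -0.03, while that of Sdha was -0.21.

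Complex III passes electrons from coenzyme Q to cytochrome c, and its 9 genes lay within a narrow band of log2 fold change, from -0.14 to -0.03. The lowest p in this complex was that of Uqcrh, the hinge protein, at 455 to 517 CPM in MR libraries and 444 to 659 CPM in Sham libraries (edgeR adjusted p = 0.581). Uqcrc1, a core protein, was at 814 to 938 CPM in MR libraries and 860 to 1043 CPM in Sham libraries. Uqcrfs1, the Rieske iron-sulfur protein, averaged 633 ± 35.1 CPM in MR and 672 ± 94.9 CPM in Sham (SD, n = 4 each). Its log2 fold change of -0.09 was 0.01 without Sham replicate 1, and that of Uqcrh, -0.14, was -0.03. Cyc1, the cytochrome c1 subunit, averaged 465 ± 41.0 CPM in MR and 484 ± 43.6 CPM in Sham. Uqcr11, a small subunit, was at 223, 226, 188 and 219 CPM in MR libraries and at 272, 211, 206 and 226 CPM in Sham libraries. Cycs, which encodes the mobile carrier cytochrome c, averaged 583 ± 35.0 CPM in MR and 615 ± 86.8 CPM in Sham, and 28.2% of its 50-base stretches also occur in other genes.

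Complex IV, cytochrome c oxidase, held the gene with the lowest p of all members. Cox6a2, the heart and skeletal muscle isoform of subunit 6A (ENSMUSG00000030785, chromosome 7, 128205435 to 128206387, GRCm38), was at 659, 709, 623 and 691 CPM in MR libraries and at 895, 795, 731 and 866 CPM in Sham libraries. The groups did not overlap, and MR replicate 2 and Sham replicate 3 were the closest. Its log2 fold change was -0.29 ± 0.08 (SE), 0.816-fold, with an edgeR adjusted p of 0.111. It was lower in MR whichever library was left out, at -0.35 to -0.26. Those left-out fits gave edgeR adjusted p from 0.0214 to 0.315, with 0.126 without Sham replicate 1. The call depended on the setting. Cox6a2 passed with DESeq2 (adjusted p = 0.0127), which called 2 members, and with limma-voom (adjusted p = 0.0468), which called 1 member and 2.75% of all genes. In edgeR it passed with the length trend removed (adjusted p = 0.0476, 1 member, 2.22% of all genes), with no filter (adjusted p = 0.0215, 3 members, 3.06% of all genes) and without Sham replicate 3 (adjusted p = 0.0214, 4 members, 5.28% of all genes). With the length trend and Sham replicate 3 both removed, 17 members and 10.1% of all genes were called.

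Cox6b2, which encodes a testis isoform of subunit 6B, had the largest log2 fold change, -0.98 ± 0.34 (SE, edgeR adjusted p = 0.192), at very low levels. It was at 1.44, 1.04, 0.697 and 1.68 CPM in MR libraries and at 3.11, 2.42, 1.04 and 3.11 CPM in Sham libraries, and Sham replicate 3 lay among the MR libraries. The structural subunit genes Cox7b and Cox6c averaged 546 ± 31.4 and 612 ± 30.1 CPM in MR, against 628 ± 99.1 and 697 ± 107 CPM in Sham (SD, n = 4 each). Their edgeR adjusted p were 0.368 and 0.394. Their log2 fold changes of -0.20 and -0.19 were both -0.10 without Sham replicate 1.

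In complex IV 5 genes had positive log2 fold changes, among them the muscle isoform genes Cox7a1 and Cox8b. Cox7a1 was at 434, 432, 357 and 381 CPM in MR libraries and at 452, 324, 338 and 321 CPM in Sham libraries. All 4 MR values lay above 3 Sham values and under that of Sham replicate 1. The log2 fold change was 0.16 ± 0.11 (SE, edgeR adjusted p = 0.537), and it was 0.28 without Sham replicate 1 (edgeR adjusted p = 0.104). Cox8b averaged 296 ± 25.7 CPM in MR and 290.3 ± 32.8 CPM in Sham. Cox4i2, an isoform gene of subunit 4 known for its response to low oxygen, had 4.93 to 6.40 CPM in MR libraries and 3.48 to 6.22 CPM in Sham libraries. Ndufa4l2, likewise known to be induced by low oxygen, had 13.2, 13.7, 12.5 and 11.3 CPM in MR libraries and 11.3, 11.1, 12.6 and 10.4 CPM in Sham libraries, with a log2 fold change of 0.16 ± 0.09 (SE, edgeR adjusted p = 0.44).

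**Figure D4:**
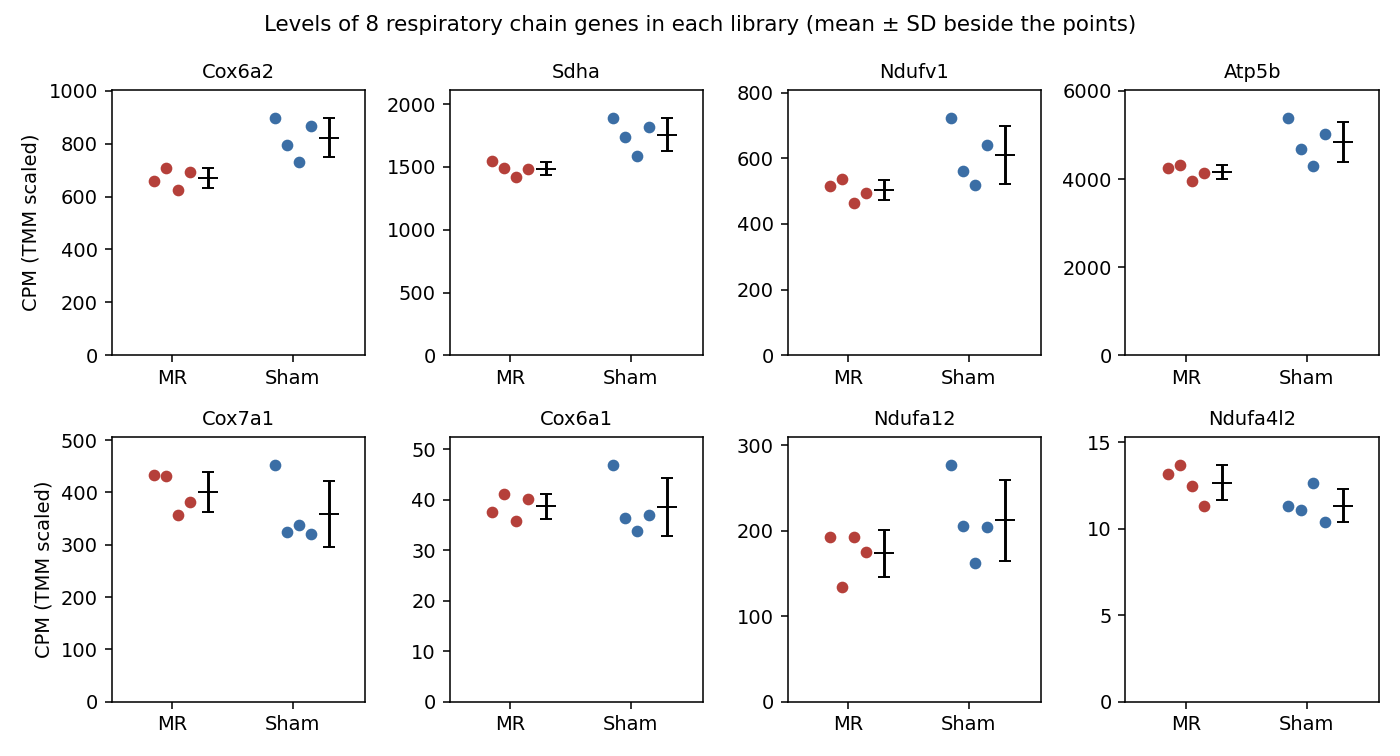
CPM of 8 genes in each library, MR left and Sham right, with the mean and SD beside the points; each panel starts at 0. Cox6a2 and Sdha do not overlap between groups, the other panels do, and Sham replicate 1 (leftmost Sham point) is the highest Sham value in all panels except that of Ndufa4l2.

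Ratios between isoform genes within a library do not depend on how libraries are scaled. They were formed from levels per kilobase of exon. The muscle over ubiquitous ratio Cox6a2/Cox6a1 was 18.1, 17.8, 18.0 and 17.8 in MR libraries and 19.7, 22.5, 22.3 and 24.2 in Sham libraries. The MR values lay within a range far narrower than that of the Sham values and below all of them. The log2 ratio differed by -0.31 (MR minus Sham), with an exact two-sided permutation p of 0.0286, the smallest that 8 libraries allow, and 0.0714 after adjustment over 5 pairs. Cox6a1 itself overlapped between the groups, at 37.6, 41.2, 35.8 and 40.1 CPM in MR libraries and at 46.9, 36.4, 33.8 and 37.0 CPM in Sham libraries. Its log2 fold change was 0.01 with a 95% interval of -0.18 to 0.19.

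The ratio of the COX7A pair ran the other way. Cox7a1/Cox7a2 was 3.30, 3.32, 3.42 and 3.38 in MR libraries and 2.58, 2.67, 3.07 and 2.28 in Sham libraries. All MR values lay above all Sham values, by 0.35 on the log2 scale, with the same exact permutation p of 0.0286 and adjusted p of 0.0714. Cox7a2, the ubiquitous partner, was at 232, 229, 184 and 199 CPM in MR libraries and at 309, 214, 195 and 249 CPM in Sham libraries. Neither pair passed the adjusted threshold, and with 5 pairs a call at 0.05 would need 3 pairs at the smallest p. Left-out libraries gave differences of -0.36 to -0.26 for COX6A and 0.28 to 0.42 for COX7A, but 7 libraries allow no p under 0.0571.

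The remaining pairs overlapped. Cox8b/Cox8a averaged 8.36 ± 0.533 in MR and 8.15 ± 0.696 in Sham (SD, n = 4 each, exact permutation p = 0.6). Cox4i1/Cox4i2 was 76.9 to 88.1 in MR libraries and 71.1 to 131 in Sham libraries, and Ndufa4l2/Ndufa4 was 0.0261 to 0.0302 in MR libraries and 0.0197 to 0.0301 in Sham libraries. Both had an adjusted p of 0.214 by the same exact permutation test. Cox4i1, the common isoform of subunit 4, was at 808 to 971 CPM in MR libraries and 837 to 1236 CPM in Sham libraries. Cox8a, the ubiquitous isoform, was at 57.9 to 62.0 CPM in MR libraries and 58.0 to 63.7 CPM in Sham libraries. Ndufa4 was at 523 to 596 CPM in MR libraries and 530 to 724 CPM in Sham libraries.

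**Figure D5:**
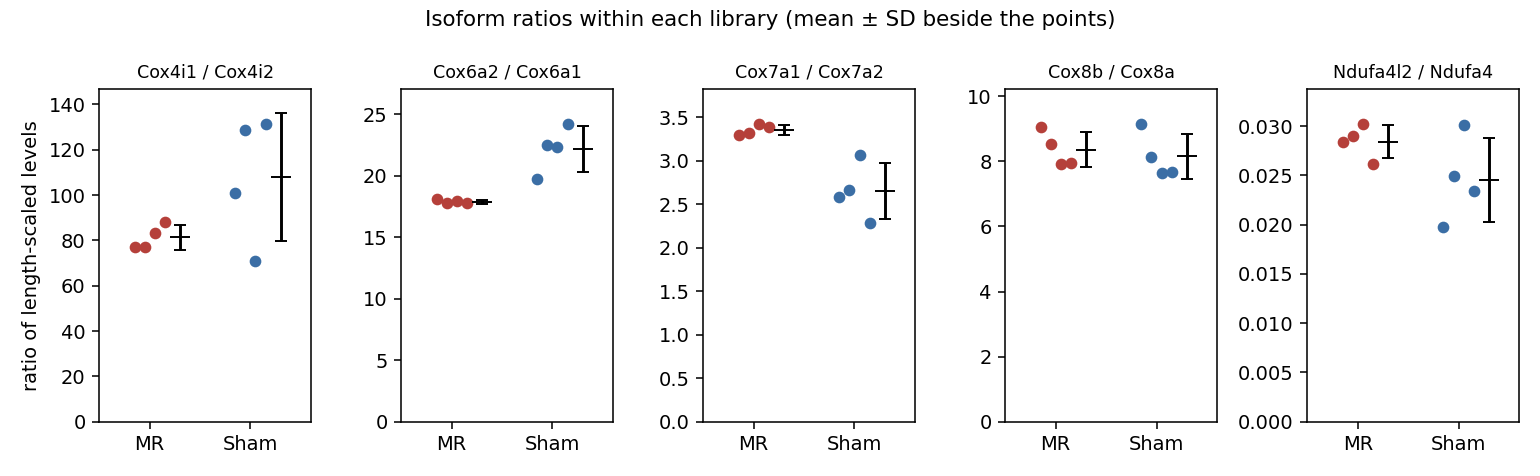
Ratio of length-scaled levels of 5 isoform pairs in each library, MR left and Sham right, with the mean and SD beside the points; each panel starts at 0. Cox6a2/Cox6a1 is lower and Cox7a1/Cox7a2 higher in all 4 MR libraries than in all 4 Sham libraries, and the other 3 pairs overlap.

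Complex V makes ATP with a catalytic head and a rotating stalk. Its 3 genes with the lowest p encode parts of the head and the stalk. Atp5b, the catalytic beta subunit, was at 4240, 4330, 3956 and 4139 CPM in MR libraries and at 5375, 4684, 4303 and 5015 CPM in Sham libraries. Only Sham replicate 3 fell within the MR range. The log2 fold change was -0.22 ± 0.08 (SE, edgeR adjusted p = 0.226). Atp5c1, the gamma subunit of the central stalk, was at 1048, 1085, 979 and 990.3 CPM in MR libraries and at 1371, 1138, 1043 and 1264 CPM in Sham libraries, again with Sham replicate 3 inside the MR range. Its log2 fold change was -0.23 ± 0.09 (SE, edgeR adjusted p = 0.234). Atp5a1, the alpha subunit, averaged 3631 ± 192 CPM in MR and 4136 ± 351 CPM in Sham (SD, n = 4 each, edgeR adjusted p = 0.297).

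Atp5l, subunit g of the membrane part, averaged 179.6 ± 16.1 CPM in MR and 209 ± 32.4 CPM in Sham, but 68.5% of its 50-base stretches also occur in other genes, mostly pseudogenes, so its counts are uncertain. Its log2 fold change of -0.22 was -0.13 without Sham replicate 1. Over all members, 14 shared more than 20% of such stretches with other genes. Complex V ranged from -0.24 to 0.06 in log2 fold change, and Atp5k alone was positive.

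Of the 12 assembly factor genes, 7 had positive and 5 negative log2 fold changes. Sdhaf3, which helps to mature the iron-sulfur subunit of complex II, was at 12.9, 12.4, 13.6 and 12.5 CPM in MR libraries and at 13.8, 10.4, 11.7 and 9.53 CPM in Sham libraries, with a log2 fold change of 0.18 ± 0.11 (SE, edgeR adjusted p = 0.458). Ndufaf8, a complex I assembly factor, was at 9.996 to 11.6 CPM in MR libraries and 11.1 to 12.5 CPM in Sham libraries. Ndufaf2, another complex I assembly factor, was at 11.6 to 14.4 CPM in MR libraries and 10.4 to 15.4 CPM in Sham libraries, and 65.6% of its exon bases overlap a noncoding gene on the other strand.

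Because subunit genes shifted together between libraries, each gene was also set against the median subunit of its own library, a measure chosen after the data were seen. On that scale 7 members were lower in all MR than in all Sham libraries, where 1.16% of all genes were, and 11 were higher, where 3.64% of all genes were. The scale is built from the members, so their spread on it is narrower than that of other genes. The shares of all genes are thus not a like background for the members. Setting genes against the median subunit also places members on both sides of it. The 7 lower members were Ndufv1, Ndufa13, Sdhc, Sdhd, Cox7b, Cox6c and Atp5c1. Ndufv1 was at -0.09, -0.07, -0.10 and -0.08 in MR libraries and at 0.07, 0.06, 0.05 and 0.17 in Sham libraries, in log2 units around its own mean. The 11 higher members were Ndufs5, Ndufv3, Ndufs8, Ndufb6, Cox6b1, Cox6a1, Cox8b, Cox7a1, Atp5k, Ndufaf3 and Ndufaf1. Cox7a1 was at 0.22, 0.16, 0.07 and 0.09 in MR libraries and at -0.05, -0.18, -0.02 and -0.28 in Sham libraries. Cox6a2 and Sdha overlapped on this scale because of Sham replicate 1, where they were at -0.04 and -0.09. No complex III gene separated the groups.

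Levels between genes were compared per kilobase of exon and scaled to a common total as in TPM. Atp5a1 ranked highest in Sham, at 2712 ± 127.5 in MR and 2996 ± 215.6 in Sham (SD, n = 4 each). Cox6a2 followed at 2309 ± 124 in MR and 2746 ± 246 in Sham, and then Atp5b at 2302 ± 72.7 in MR and 2597 ± 223 in Sham. Cox6a2 and Atp5b differed by less than the Sham spread. The order depends on the exon length used, since with the principal transcript length Atp5b was at 4555 and Cox6a2 at 2178 in Sham. The order of the summed levels also depended on length, with complex IV highest by merged exon length and complex V highest by principal transcript length. By merged exon length, complex IV was at 14540 ± 736 in MR and 15120 ± 1630 in Sham. Complex I summed to 12480 ± 638 in MR and 12950 ± 1492 in Sham, and complex V to 11740 ± 517 in MR and 12740 ± 1290 in Sham. Complex III was at 6624 ± 324 in MR and 6771 ± 656 in Sham, and complex II at 2379 ± 94.1 in MR and 2620 ± 231 in Sham. The group ranges of all 5 sums overlapped. Without Sham replicate 1 the Sham mean was 12320 for complex I, 6503 for complex III and 14470 for complex IV, each under the MR mean. It was 2547 for complex II and 12300 for complex V, each still above the MR mean. All subunits took 4.82 ± 0.23% of the length-scaled total in MR and 5.06 ± 0.53% in Sham (SD, n = 4 each). In Sham libraries 1 to 4 that share was 5.69%, 4.73%, 4.53% and 5.31%. The 13 mtDNA-encoded subunits took 48.0 ± 0.96% in MR and 47.4 ± 1.83% in Sham. The summed level of nuclear over mtDNA-encoded subunits was 0.0544 to 0.0631 in MR libraries and 0.0544 to 0.0739 in Sham libraries for complex I. It was 0.0731 to 0.0849 in MR libraries and 0.0746 to 0.0974 in Sham libraries for complex IV. For complex V it was 1.95 to 2.57 in MR libraries and 1.90 to 3.32 in Sham libraries. The groups overlapped in each.

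The other genes of the pathway came from lists taken up with earlier results known, and calls are those of edgeR with all libraries unless another setting is named. None of the 13 mtDNA-encoded subunit genes passed the threshold, and 12 were negative with a median log2 fold change of -0.02. Of these, mt-Nd3 had 147 to 453 CPM in MR libraries and 196 to 500.1 CPM in Sham libraries, and mt-Atp8 had 17.1 to 38.1 CPM in MR libraries and 30.3 to 33.3 CPM in Sham libraries. None of 36 other assembly factors passed, with 23 positive, 13 negative and a median of 0.01. Among them Cox17, a copper chaperone of complex IV, was at 6.70, 6.78, 7.04 and 6.92 CPM in MR libraries and at 8.13, 8.15, 7.93 and 9.59 CPM in Sham libraries. Its groups did not overlap (log2 fold change -0.30 ± 0.10 SE, edgeR adjusted p = 0.151). Surf1, another complex IV assembly factor, averaged 21.7 ± 1.20 CPM in MR and 24.2 ± 2.72 CPM in Sham.

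None of 16 regulators of mitochondrial genes passed in edgeR with all libraries. Of these 12 were negative, with a median of -0.08, where 49.6% of all tested genes were negative. At an unadjusted edgeR p under 0.05, 3 were lower and 1 was higher. Of all tested genes 7.29% were lower and 7.78% higher by that measure. The higher gene was Ppargc1b, a coactivator of mitochondrial genes, at 19.7, 15.2, 15.8 and 21.7 CPM in MR libraries and 11.4, 13.2, 13.7 and 14.3 CPM in Sham libraries, without overlap (log2 fold change 0.47 ± 0.12 SE, edgeR adjusted p = 0.0842). Left-out libraries gave Ppargc1b edgeR adjusted p from 0.0471, without Sham replicate 3, to 0.198, with 0.131 without Sham replicate 1. Its adjusted p was 0.0631 in edgeR with the length trend removed, 0.0152 in DESeq2 and 0.0537 in limma-voom. Esrrb, an estrogen-related receptor, averaged 28.4 ± 2.23 CPM in MR and 34.4 ± 2.94 CPM in Sham (edgeR adjusted p = 0.125). Esrrb passed in DESeq2 (adjusted p = 0.0488), in limma-voom (adjusted p = 0.0386) and in edgeR with the length trend removed (adjusted p = 0.0351). Ppargc1a, another coactivator, averaged lower in MR, at 109 ± 8.03 CPM against 129 ± 13.5 CPM in Sham, and the groups overlapped. Its log2 fold change was -0.24 ± 0.09 (SE, edgeR adjusted p = 0.202). Ppargc1a passed in edgeR with the length trend removed (adjusted p = 0.0452). It did not pass in DESeq2 (adjusted p = 0.122) or limma-voom (adjusted p = 0.0607), and it was named after its values were seen. None of 16 genes of coenzyme Q synthesis and electron entry passed, with 11 negative and a median of -0.10. There, Coq7, of coenzyme Q synthesis, averaged 51.3 ± 4.46 CPM in MR and 61.4 ± 9.44 CPM in Sham. Etfa, of the electron transfer flavoprotein, averaged 605 ± 24.0 CPM in MR and 672 ± 90.9 CPM in Sham.

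Marker lists of the cell types a heart sample can hold are given beside these results. Their summed levels did not overlap between the groups for fibroblast, atrial, neutrophil and skeletal muscle markers, and overlapped for the others. The median log2 fold change of the 10 cardiomyocyte markers was -0.13, with 9 negative, where 49.6% of all tested genes were negative. At an unadjusted edgeR p under 0.05, 5 of the 10 were lower, where 7.29% of all tested genes were. In Sham libraries 1 to 4 the cardiomyocyte sum was 61000, 61620, 53460 and 61000 CPM. The 8 fibroblast markers summed to 1115 to 1257 CPM in MR libraries and 948 to 1031 CPM in Sham libraries. Of these 6 were positive and 2 negative, and 2 were called higher in MR, where 0.241% of all tested genes were. In the brown fat and skeletal muscle lists 1 gene each was called higher, and no marker of the other lists was called. The 6 endothelial markers summed to 752 to 801 CPM in MR libraries and 622 to 774 CPM in Sham libraries, and were lowest in Sham replicate 1. The 6 smooth muscle and pericyte markers summed to 934 to 1055 CPM in MR libraries and 873 to 953 CPM in Sham libraries, and the 7 macrophage markers to 192 to 219 CPM in MR libraries and 199.6 to 221 CPM in Sham libraries. Atrial markers summed to 105 to 226 CPM in MR libraries and 58.6 to 82.8 CPM in Sham libraries, neutrophil markers to 3.10 to 6.03 CPM in MR libraries and 8.51 to 60.3 CPM in Sham libraries, and red cell markers to 376 to 724 CPM in MR libraries and 309 to 559 CPM in Sham libraries. Skeletal muscle also expresses the muscle isoforms of complex IV, and its markers summed to 21.7 to 30.6 CPM in MR libraries and 13.2 to 16.7 CPM in Sham libraries, nearly all from Myl1, with Myh1 and Myh4 under 1 CPM. Brown fat markers summed to 43.5 to 46.3 CPM in MR libraries and 39.3 to 48.9 CPM in Sham libraries, and white fat markers to 0.121 to 4.14 CPM in MR libraries and 0.135 to 1.69 CPM in Sham libraries. The part of these cells in the subunit values was not tested.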

How the data were processed

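Messenger RNA of mouse heart was sequenced in 4 MR and 4 Sham libraries, after TRIzol extraction and ABclonal library preparation per the labels' protocols. The authors deposited whole-number counts per Ensembl gene, with no normalization. The submitters' processing notes name HISAT2 2.0.5 and mm10 without roles; the sources used here do not give the counting tool, its strand setting or whether reads or fragments were counted. Total counts of 42291511 to 58658094 limit precision mainly for genes under a few CPM.

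Symbols, coordinates and exon lengths came from GENCODE M21 (GRCm38); 32350 identifiers matched and 755 did not. Groups came from the treatment label. Genes were filtered with filterByExpr (minimum count 10, minimum total 15), scaled by TMM and compared with the quasi-likelihood F test of edgeR 4.0.16 (robust) in R 4.3.3, with Benjamini-Hochberg adjustment over 16603 genes at 0.05. The SE is the log2 fold change divided by the square root of F. CPM are TMM-scaled. The 95% intervals are nominal, at 1.96 SE, and are narrower than the F test would give. Isoform ratios (0.5 counts added) were compared by exact two-sided permutation over 70 arrangements. DESeq2 1.42.0, limma 3.58.1, other scalings, filters, length correction and left-out libraries were alternatives. Scripts were tested on simulated data.

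The members and lists were chosen with earlier results of these data known. Named genes are, per complex, the 4 with the lowest p and the 2 highest per length, all of complex II, Cyc1, Cycs, the isoform pairs, 3 assembly factors and 2 genes per pathway list by p. Genes listed beyond these, in the comparison with the median subunit, were named after their values were seen. A gene picked by the naming rule is not reported here.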

Additional observations from a re-analysis of the deposited data

Results flagged for a closer look

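In 5 of 92 groups of 4 libraries examined, a single library lay far from the other 3; chance gives about 1 in 20. Sham replicate 1 was high for 2 genes: Cox7a1 was at 452 CPM, against 321 to 338 CPM in the other Sham libraries, and Ndufa4 at 724 CPM, against 530 to 561 CPM. MR replicate 3 was low for Uqcr11, at 188 CPM, against 219 to 226 CPM in the other MR libraries, and for Cox8a, at 57.9 CPM, against 61.4 to 62.0 CPM. MR replicate 2 was high for Atp5l, at 204 CPM, against 169.5 to 174.5 CPM in the other MR libraries.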

How the results depend on the processing

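With all libraries, 76 genes and 0 members were called; 8 members had an unadjusted p under 0.05. The gene and member counts were 936 and 3 (Cox6a2, Cox6b2, Ndufv1; 3.06% of genes) with no filter, 688 and 2 (Cox6a2, Sdha; 4.14%) with DESeq2, 457 and 1 (Cox6a2; 2.75%) with limma-voom, and 368 and 1 (Cox6a2; 2.22%) with the length trend removed. Leaving out single libraries gave 3 to 887 genes and 0 to 4 members, the highest without Sham replicate 3 (Cox6a2, Cox6b2, Ndufv1, Sdha). Chosen after the data were seen, removal of the length trend together with Sham replicate 1, 2, 3 or 4 gave 284, 36, 1696 and 37 genes; 17 members were called without Sham replicate 3 and 0 without each other Sham library. Gene calls were 40 higher and 36 lower with TMM, and 53 higher and 17 lower with library totals only. The cause of these differences was not tested.

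Medians of complexes II and V stayed negative under every fit, at -0.26 to -0.09 and -0.24 to -0.05; those of complex I and Cycs turned positive without Sham replicate 1. That of the assembly factors was -0.0354 to 0.1018 over the left-out libraries. Summed levels of complexes I, III and IV and of Cycs turned positive without Sham replicate 1, at 0.0193, 0.0277, 0.0086 and 0.0348. That alternative was chosen after the data were seen. The sum of complex III was also positive without MR replicate 3, at 0.0058. Isoform differences kept their signs. Signs turned for Cox8a (0.0336 with library totals, 0.0136 with voom, 0.0016 with the length trend removed, 0.0070 and 0.0068 with it removed and without Sham replicate 3 or 4), Cox6a1 (-0.0242 and -0.0058 in those last 2 fits) and Ndufaf2 (-0.0320 in the last). Left-out libraries gave -0.1433 to 0.0103 for Uqcrfs1, -0.1524 to 0.0087 for Cycs, -0.0244 to 0.1026 for Cox8b, -0.0535 to 0.1087 for Cox6a1, -0.0351 to 0.0117 for Cox8a and -0.1303 to 0.0256 for Ndufa4. No paired analysis was possible because the labels give no replicate numbers shared by the groups.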
